A study of Mus musculus with 4 samples.

Results

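The calcium transport and vitamin D genes described here are 10 members of the 20672 genes counted in mouse kidney cells. They are the calcium-binding proteins S100g, Calb1 and Pvalb, the calcium channel Trpv5, the sodium-calcium exchanger Slc8a1, the calcium-sensing receptor Casr, the vitamin D receptor Vdr, the vitamin D hydroxylases Cyp27b1 and Cyp24a1, and klotho, Kl. They were chosen by name for their roles, and each was matched by symbol to 1 row of the count tables. Single-cell RNA was counted in 4 libraries of wild-type kidney with a droplet 3′ kit. E15.5 and P0 kidneys came from ICR mice and the E17.5 kidney from C57BL/6 mice. The transplant was C57BL/6N kidney of E12.5 embryos that stayed 12 days in epididymal fat, in a host that the labels give as NOD immunodeficient in one place and as C57BL/6N in another. Each group is 1 library, so age and strain cannot be told apart where E17.5 is set beside the ICR libraries, nor age, strain, host and site where the transplant is set beside any of them. The labels do not say how many kidneys were pooled.

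The kidney returns filtered calcium to the blood along the whole nephron. In the thick ascending limb of the loop of Henle it passes between cells, through claudin pores, and Casr on the blood side of these cells senses calcium. In the distal convoluted and connecting tubules it passes through cells: Trpv5 lets it in from the lumen, calbindins carry it, and Slc8a1 and calcium pumps move it out to the blood. Proximal tubule cells make the active vitamin D hormone with Cyp27b1 and break it down with Cyp24a1. The hormone acts through Vdr, a nuclear receptor, while the bone hormone FGF23 acts on the kidney through receptors that need Kl.

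Cells were put into classes by marker genes, called gates here. The proximal, loop and ureteric gates use several genes each, among them Lrp2 and Cubn, Slc12a1 and Umod, and Hoxb7, Wnt9b, Ret and Aqp2. Slc12a3, the thiazide-sensitive cotransporter of the distal convoluted tubule, defines the distal gate. From E15.5, E17.5 and P0 to the transplant, in that order, the gates held 139, 630, 708 and 1087 proximal cells, 21, 166, 489 and 564 loop cells, 8, 20, 22 and 117 distal cells, and 140, 378, 513 and 204 ureteric cells. Several marker genes not used in the gates were higher than in the other gates in the proximal gate (Slc22a8, Miox), the loop gate (Cldn19, Kcnj1), the distal gate (Wnk4, Trpm6) and the ureteric gate (Gata3, Elf5). Other markers were not: Kap had 0 UMIs in the E15.5 proximal gate, and Egf had 3.15 CPM in the loop gate and 3.1 in the distal gate of the transplant, below 11.8 and 10.5 over the cells of the other gates. A gate meant for connecting tubule cells, which needs at least 2 of the genes Tmem52b, Hsd11b2, Scnn1b and Scnn1g, held 26, 11, 20 and 54 cells. Its separate marker Klk1 had 0, 0, 0 and 831 UMIs there, so the name connecting tubule is not borne out in the 3 kidneys in situ, and it is called the Tmem52b gate. The gates are ranges of a score and not discrete types: 71 of the E15.5 ureteric cells and 103 of those at P0 lay less than 1.5 times above the threshold. Genes of other gates had medians per 10000 UMIs of at most 6.61 in any tubule gate, apart from the genes of the Tmem52b gate, whose median reached 22.1 in the distal gate and 18.7 in the transplant ureteric gate.

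Levels are UMIs of a gene per 1000000 UMIs of all cells of a gate (CPM), with exact Poisson 95% intervals. These intervals, and those of shares and ratios, cover counting error only. With 1 library per group no difference could be tested against the spread between animals, and no gene is called changed. Median UMIs per cell ran from 6276.5 in the transplant to 22585 at E15.5, so shares of cells with a UMI are also given after thinning every cell to 3000 UMIs. Pairs of libraries shared 19 to 60 cell barcodes, at most 1.05% of the smaller library. Cells that passed several gates were left out of all gates: 17, 60, 92 and 550 cells. This matters for the transplant, where 49.2% of the S100g UMIs and 70.8% of the Trpv5 UMIs lay in such cells. The most frequent kind there was 115 cells passing the ureteric and intercalated gates.

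**Figure D1:**
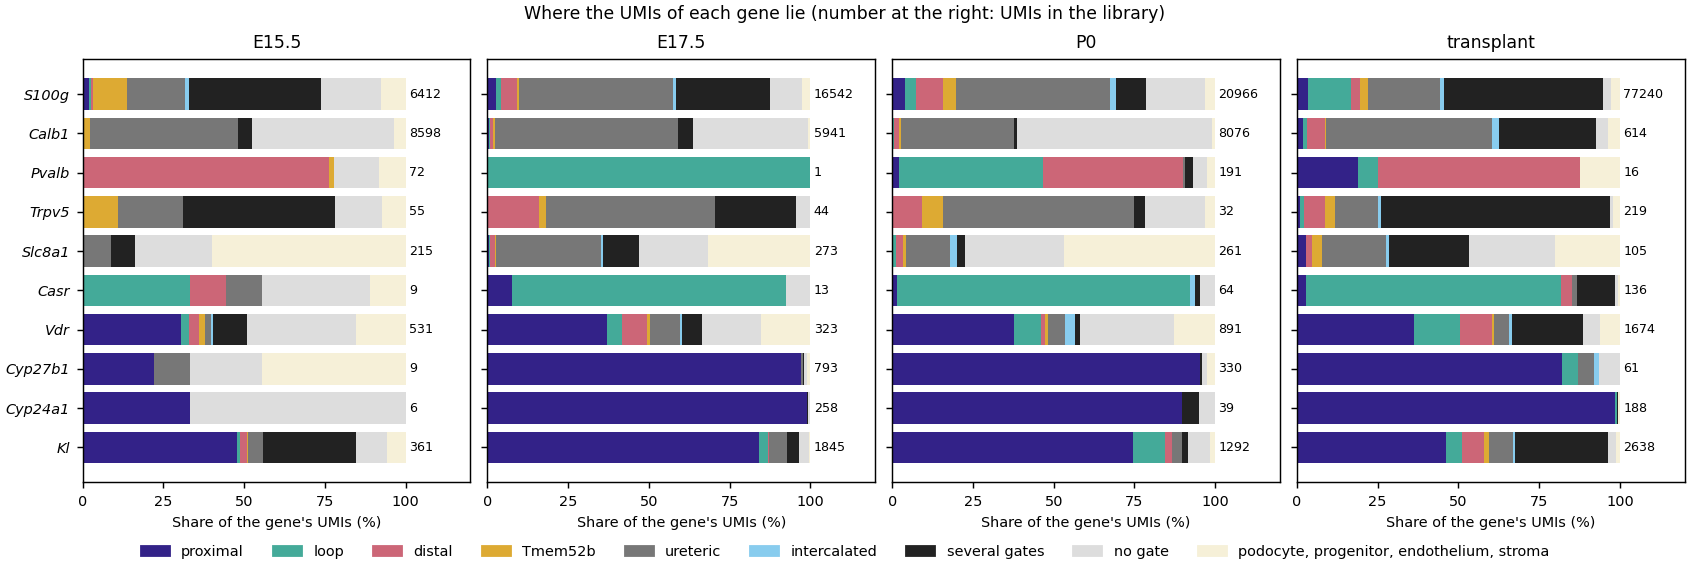
Share of the UMIs of each gene (x axis, percent) by the gate of the cells that hold them, in each of the 4 libraries, with the number of UMIs at the right of each bar. Cyp27b1 and Cyp24a1 lie almost wholly in the proximal gate at E17.5, Casr in the loop gate, and the black bars show the cells of several gates that hold 70.8% of Trpv5 UMIs in the transplant.

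S100g encodes calbindin-D9k, a small calcium-binding protein of calcium-transporting epithelia, and had the most UMIs of the 10 genes over the 4 libraries. In the distal gate its level was 11254 (95% interval 10734 to 11792) CPM at P0 and 2363 (95% interval 2267 to 2462) in the transplant. The same gate had 4688 (95% interval 4374 to 5019) CPM at E17.5 and 301 (95% interval 217 to 406) at E15.5, the last in only 8 cells. This order depends on how cells of several gates are treated. With every cell that passed the distal gate counted, whatever other gate it passed (an alternative chosen after seeing the data), the level was 10617 CPM at E17.5, 9256 at P0, 3546 at E15.5 and 2921 in the transplant, so that E17.5 was highest and the transplant lowest. These levels come from 30, 28, 11 and 195 cells in that order. At E15.5 the 11 cells held 895 S100g UMIs, against 42 in the 8 cells of the distal gate alone. In the ureteric gate the level was 265, 2103, 1735 and 6719.7 CPM from E15.5, E17.5 and P0 to the transplant, and in the Tmem52b gate 605, 965, 3648 and 7099. There the transplant was highest. The loop gate had 37.6, 167, 151 and 1532 CPM.

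S100g RNA was very unevenly spread over cells. At P0, 16 of 513 ureteric cells held 50% of the S100g UMIs of that gate, and the median ureteric cell had 0. In the transplant the median ureteric cell had 11 UMIs, and 50.5% of ureteric cells had at least 10, against 6.43%, 12.4% and 18.9% in the E15.5, E17.5 and P0 libraries. The share of ureteric cells with an S100g UMI was 40.5% (95% interval 36.3 to 44.9) at P0 and 87.7% (95% interval 82.4 to 91.9) in the transplant, and 27.9% and 70.3% in thinned cells. In the loop gate of the transplant, 18 of 564 cells held 50% of the S100g UMIs. The highest P0 distal cell alone had 717 UMIs, 40.7% of that gate's.

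Endothelial and stromal cells give the background of S100g. They had 9.65, 25, 30.4 and 128 CPM and 13.1, 41.6, 25.9 and 152 CPM. In the transplant 62.3% of endothelial cells had an S100g UMI, with a median depth of 6802 UMIs, against 78.7% of proximal cells, with a median of 11707. Thinned, these shares were 32.6% and 38.9%. The proximal level of 186 CPM in the transplant is therefore close to background and is not read as expression. The summed loop, distal, Tmem52b and ureteric levels of the transplant were far above it. The median loop, distal and proximal cell there each had 2 S100g UMIs, at median depths of 8522.5, 6835 and 11707. The summed loop and distal levels therefore do not describe the median cell.

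Between P0 and E15.5, S100g was 6.55-fold (95% interval 6.16 to 6.97) higher in the ureteric gate, 6.03-fold (95% interval 5.44 to 6.69) higher in the Tmem52b gate and 4.01-fold (95% interval 2.73 to 6.12) higher in the loop gate. With gate thresholds doubled the ureteric difference was a log2 ratio of 0.35, under 2-fold. It was 2.59-fold when every cell passing the ureteric gate was counted and 2.48-fold in ureteric cells with Aqp2. In the transplant S100g was 10.2-fold (95% interval 9.43 to 11) higher than at P0 in the loop gate and 3.87-fold (95% interval 3.78 to 3.97) higher in the ureteric gate, but 4.76-fold (95% interval 4.47 to 5.07) lower in the distal gate. Without the highest cell of each gate the distal log2 ratio was -1.77, against -2.25 with it. When every cell that passed the distal gate was counted, transplant S100g was 3.17-fold lower than P0 (195 and 28 cells). Over all cells passing the distal, Tmem52b, ureteric or intercalated gate, S100g was 3.1-fold higher in the transplant than at P0 (95% interval 3.04 to 3.16).

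The S100g gene lies at chrX:162961992-162964599 on the minus strand of GRCm38, a protein-coding gene of 3 exons in the GENCODE annotation, and Ctps2 overlaps its exons on the other strand. Since the strand setting of the counting is not given in the sources used here, reads of the overlap cannot be assigned with certainty. Its promoter window, 250 bases before to 50 after the start at chrX:162964550-162964849 (minus strand, RefSeq, GRCm38.p6), is shown because S100g differed widely between gates and libraries. Capitals mark matches on either strand to TATAAA, the letters of the TATA box, and to hexamers found in response elements of Vdr and related nuclear receptors.
S100g: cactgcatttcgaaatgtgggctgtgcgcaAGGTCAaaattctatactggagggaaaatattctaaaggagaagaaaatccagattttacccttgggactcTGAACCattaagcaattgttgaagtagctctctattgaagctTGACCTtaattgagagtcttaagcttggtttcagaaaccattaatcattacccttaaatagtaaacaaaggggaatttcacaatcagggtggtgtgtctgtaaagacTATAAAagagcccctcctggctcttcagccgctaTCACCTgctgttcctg
The S100g window holds TATAAA, beginning at the RefSeq start of this window, as do 13.6% of the 32851 promoter windows of mouse genes. It holds the hexamer AGGTCA once on each strand, which is found in 16.3% of all windows on either strand. On the other strand it also holds AGGTGA, which 17.4% of all windows hold. The last of the hexamers searched, GGTTCA, is there on the other strand too and in 10.4% of all windows. The full paired element named DR3, a direct repeat with 3 bases between, was in 0.256% of windows and in 0 of the 9 windows found for 8 of the members. No window was found for Calb1 or Cyp24a1, so the search says nothing about them. A letter match is not a binding site, and a missing match says only that these letters are not in this window.

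Calb1 encodes calbindin-D28k, the larger calbindin of the distal nephron, and in the embryo it is widely used as a marker of the branching ureteric bud. Its RNA was highest in the ureteric gate at E15.5 and E17.5, with 899 (95% interval 871 to 927) and 896 (95% interval 866 to 927) CPM, and was 487 (95% interval 469 to 506) at P0 and 123 (95% interval 110.1 to 138) in the transplant. The share of ureteric cells with a Calb1 UMI was 87.1%, 67.5%, 52% and 34.8% in that order, or 67.4%, 59.4%, 41.7% and 19.8% thinned. Endothelial cells had 16.7%, 3.85%, 3.87% and 0.449%. Ureteric Calb1 therefore lay far above background in every library.

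In the distal gate Calb1 had 734 CPM at P0, 346 at E17.5 and 14.3 at E15.5 (2 UMIs). The transplant had 34. With every cell passing the distal gate counted, the in situ order turned, to 561 CPM at P0, 704 at E17.5 and 785 at E15.5, and the transplant was again lowest with 44.7. This E15.5 value rests on only 11 cells, with 198 Calb1 UMIs against 2 in the 8 cells of the distal gate alone. At P0 15 of 22 distal cells had a Calb1 UMI, and 14 of these also had S100g, 93.3% beside 100% of the other distal cells. In the transplant 12 of 117 distal cells had a Calb1 UMI, all with S100g, beside 81% of the other distal cells. The Tmem52b gate had 161, 274, 287 and 11.1 CPM. So the transplant, which held the most S100g, held the least Calb1: 614 UMIs in the whole library, against 8598, 5941 and 8076.

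Within the ureteric gate, cells with tip genes (at least 2 UMIs of Ret and Wnt11 together) were set apart from cells with at least 2 UMIs of Aqp2, cells with both left out, the water channel of collecting duct principal cells. This split was made after the values had been seen. Tip cells made up 17.3% of the gate at P0, 22% at E17.5 and 53.6% at E15.5, and the transplant had 1 tip cell of 204. Calb1 in tip cells was 1310.4, 1763 and 1273 CPM, with a UMI in 89 of 89 cells at P0. In Aqp2 cells it was 250.2, 456, 256 and 147 CPM from E15.5 to the transplant. Between P0 and E15.5 the ratios were near 1 in these subsets, 0.972 in tip cells (95% interval 0.916 to 1.03) and 1.02 in Aqp2 cells (0.899 to 1.17). The remaining cells of the gate did not share this. From E15.5 to the transplant they had 583, 1033.5, 186 and 0 CPM of Calb1, in 30, 42, 32 and 51 cells. They made up 21.4% of the gate at E15.5, 6.24% at P0 and 25% in the transplant. Over the whole gate Calb1 was 1.84-fold (95% interval 1.76 to 1.94) lower at P0.

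S100g showed the opposite order within the gate. Tip cells had 7.41, 50.7 and 122 CPM, and Aqp2 cells 959, 3412, 2375 and 7717. In Aqp2 cells the transplant was 3.25-fold higher than P0 in S100g and 1.75-fold lower in Calb1 (95% interval 1.54 to 1.99), against 3.95-fold (95% interval 3.51 to 4.45) over the whole gate. With gate thresholds doubled the whole-gate log2 ratio of Calb1 was -0.98, just under 2-fold.

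**Figure D2:**
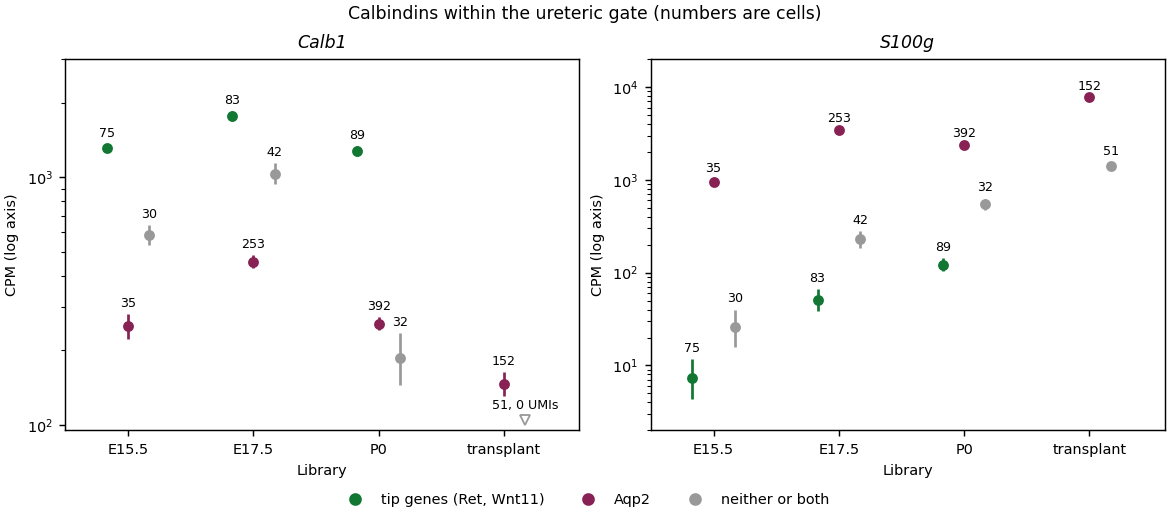
CPM (log axis) of Calb1 and S100g in 3 subsets of the ureteric gate by library, with 95% Poisson intervals and the number of cells above each point. An open triangle stands for 0 UMIs and the single transplant tip cell is not drawn. In the 3 kidneys in situ Calb1 is highest in tip cells, and S100g is highest in Aqp2 cells in every library.

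Calb1 was also plentiful in cells of no gate, which held 46.3% of all Calb1 UMIs. These lay in few cells. At P0, 262 of 2973 ungated cells had at least 5 Calb1 UMIs and held 95.1% of the ungated total. Of these, 244 had at least 1 UMI of a ureteric gate gene and 218 of Gata3, a transcription factor of the ureteric lineage. The share of the other ungated cells with such a UMI is not given here, so these counts do not name the cell type. No ungated transplant cell had 5 Calb1 UMIs.

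Pvalb encodes parvalbumin, a calcium buffer of the first part of the distal convoluted tubule in rodents. The ICR libraries held nearly all of it, 72 UMIs at E15.5 and 191 at P0, and the C57BL/6 lines had 1 at E17.5 and 16 in the transplant. The distal gate had 83 UMIs in 7 of 22 P0 cells and 55 in 6 of 8 E15.5 cells, but 0 in 20 E17.5 cells and 10 in 4 of 117 transplant cells. The E15.5 value rests on 1 cell that held 65.5% of the UMIs. Strain, age and host cannot be told apart in this pattern.

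The P0 loop gate held about as many Pvalb UMIs as the distal gate, 85, in 31 of 489 cells, with at most 8 in a cell. Loop cells of the other libraries had 0 (E15.5), 1 (E17.5) and 1 (transplant), and P0 endothelial cells had 2. Loop Pvalb was 4.28-fold higher at P0 than at E15.5 when 3 UMIs were counted at E15.5, where none was seen in 21 loop cells. The exact interval of the ratio begins at 3.41. It covers counting error only and not the spread of Pvalb over few cells, so no least difference is read from it. In the distal gate the transplant was 51.4-fold (95% interval 26.6 to 111) lower than P0. The Tmem52b and ureteric gates held 1 Pvalb UMI at E15.5, in the Tmem52b gate, and 1 at P0, in the ureteric gate. At P0 7 of 7 Pvalb cells of the distal gate also had S100g, beside 93.3% of the other distal cells. In the transplant distal gate it was 4 of 4, beside 82.3%. At E15.5 it was 4 of 6 there, or 66.7%, beside 100% of the other distal cells. In the P0 loop gate it was 11 of 31, a share of 35.5% beside 42.1% of the other loop cells.

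Trpv5 encodes the channel through which calcium enters distal tubule cells from the urine. Its UMIs were few: 55, 44, 32 and 219 from E15.5 to the transplant. Most lay in the distal, Tmem52b and ureteric gates and in cells of several gates (26, 11, 1 and 155), with 0, 0, 0 and 2 UMIs in the proximal gate and 0, 0, 0 and 3 in the loop gate. Distal cells had 0, 7, 3 and 14 UMIs, or 0, 39.7, 19.2 and 14.4 CPM. These levels have wide intervals, 3.95 to 56 CPM at P0, and their order over libraries is not resolved at this depth. With every cell passing the distal gate counted there were 16, 12, 4 and 43 UMIs, or 63.4, 48.3, 19 and 21.6 CPM. These came from 11, 30, 28 and 195 cells.

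In the ureteric gate Trpv5 had 2.52, 6.15, 3.3 and 11.4 CPM, and tip cells had 0, 0 and 0 UMIs in situ. The transplant was 3.46-fold (95% interval 1.87 to 6.52) higher than P0 there. Over all cells of the distal, Tmem52b, ureteric or intercalated gates, several gates allowed, it was 6.35-fold higher (95% interval 4.18 to 10), with a UMI in 130 of 810 cells against 20 of 640. Every distal cell with a Trpv5 UMI also had S100g, 6 cells of the E17.5, 3 of the P0 and 10 of the transplant library, beside 85.7%, 94.7% and 81.3% of distal cells without Trpv5.

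Trpv5 lies at chr6:41652173-41680769 on the minus strand, with 15 exons. Its promoter window, chr6:41680674-41680973 (minus strand, RefSeq, GRCm38.p6), is shown beside that of S100g because every distal cell with a Trpv5 UMI also had S100g. Most distal cells without Trpv5 had S100g too, and no link between the genes is read from this overlap. TATAAA, in capitals, is the only searched motif in it, and begins at position -43 from the RefSeq start of this window, which is not the end of the gene given above.
Trpv5: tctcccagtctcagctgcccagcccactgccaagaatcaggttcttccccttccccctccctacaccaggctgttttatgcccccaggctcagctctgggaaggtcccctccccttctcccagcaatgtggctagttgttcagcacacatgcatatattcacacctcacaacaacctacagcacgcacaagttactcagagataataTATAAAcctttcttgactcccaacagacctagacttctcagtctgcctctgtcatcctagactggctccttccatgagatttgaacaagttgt

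Slc8a1, or NCX1, exchanges calcium for sodium at the blood side of distal cells and is also active in muscle and other cells. Of its UMIs 22.4% lay in the 5 tubule gates. Stroma had 5.98, 13.3, 7.28 and 3.55 CPM and endothelium 0.979, 7.08, 5.8 and 0.692. The ureteric gate had 4.12, 23.8, 6.25 and 8.25 CPM, on 18, 89, 36 and 21 UMIs, with the E17.5 library above the others. Proximal and loop cells each had at most 3 UMIs in any library. Distal cells had 0, 4, 6 and 2 UMIs, or 0, 22.7, 38.3 and 2.06 CPM. At P0 the distal level was the highest of the gates, on those few UMIs. With every cell passing the distal gate counted there were 11, 19, 6 and 3 UMIs, or 43.6, 76.5, 28.5 and 1.51 CPM. These came from 11, 30, 28 and 195 cells, and E17.5 was then highest. The transplant was 50.7-fold (95% interval 14.9 to 268) lower than E17.5 in these cells. The transplant was 2.88-fold (95% interval 1.78 to 4.89) lower than E17.5 in the ureteric gate. On the other strand AC122399.1 and Gm11096 overlap exons of Slc8a1 (chr17:81373105-81738377).

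Casr encodes the receptor by which thick ascending limb cells sense calcium in the blood, and from E17.5 on most of it was found in loop cells. The loop gate held 3, 11, 58 and 107 of 9, 13, 64 and 136 UMIs. Its level was 16.1 (95% interval 13.2 to 19.4) CPM in the transplant and 12.2 (95% interval 9.26 to 15.8) at P0, above 8.16 (95% interval 4.07 to 14.6) at E17.5 and 4.17 (95% interval 0.861 to 12.2) at E15.5. Neighbouring intervals in this order overlap, and the ratios of P0 to E15.5 and of the transplant to P0, 2.92-fold (95% interval 0.951 to 14.6) and 1.32-fold (95% interval 0.948 to 1.85), have intervals that include 1. The share of loop cells with a Casr UMI was 11% at P0 and 14.4% in the transplant, and 3.96% and 4.22% thinned. Endothelial cells had 0 UMIs in each library, which at P0, from 3 counts, allows up to 0.341% of 879 cells with a UMI and sets no limit on cells expressing the gene. Outside the loop, the distal gate of the transplant had 5 UMIs in 117 cells and the in situ distal gates 1, 0 and 0.

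**Figure D3:**
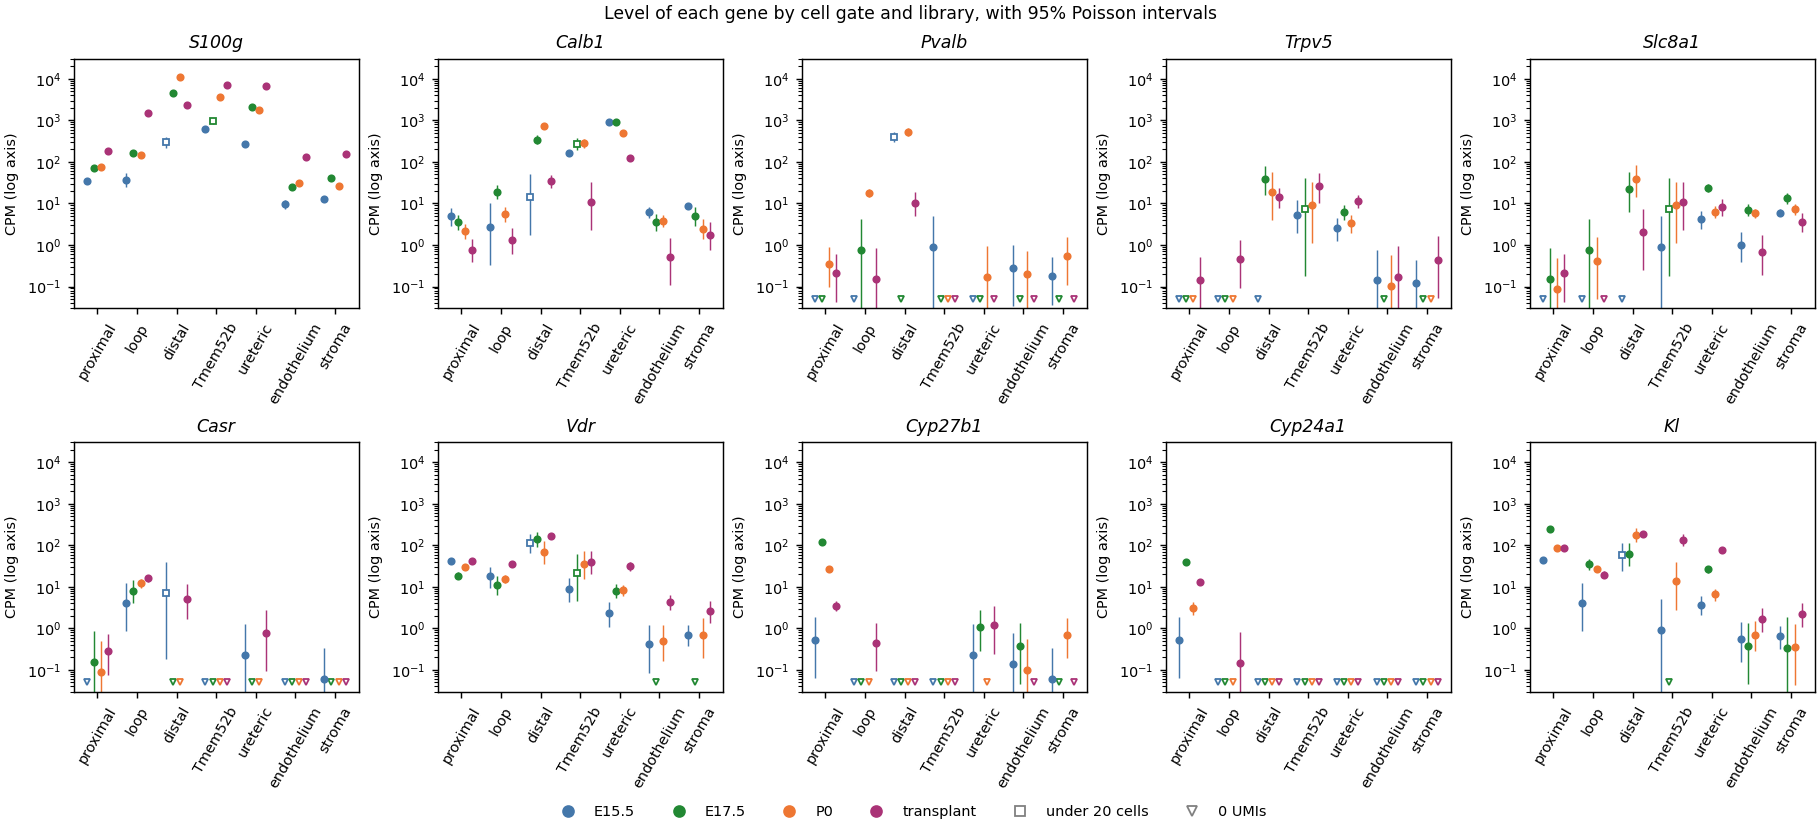
CPM (log axis) of each gene in 5 tubule gates, endothelium and stroma, in the 4 libraries, with 95% Poisson intervals. Open squares are gates of under 20 cells and open triangles 0 UMIs. Cyp27b1 and Cyp24a1 stand out in the proximal gate, Casr in the loop gate, and Calb1 and S100g in the distal, Tmem52b and ureteric gates.

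Vdr, the receptor of active vitamin D, was found in every tubule gate. The distal gate had 142 (95% interval 91.8 to 209) CPM at E17.5 and 169 (95% interval 144 to 197) in the transplant. It had 114 in the few E15.5 cells and 70.3 (95% interval 35.1 to 126) at P0. These were the highest levels of any tubule gate, but the P0 lead over the Tmem52b gate (36.4 CPM) was not resolved. Counting every cell that passed the distal gate put E15.5 highest, with 202 CPM (95% interval 150 to 266). The transplant then had 160 (95% interval 143 to 179), E17.5 129 and P0 61.8. This E15.5 value rests on only 11 cells, with 51 Vdr UMIs against 16 in the 8 cells of the distal gate alone. The proximal gate, the largest holder of Vdr UMIs, had 41.7, 18.6, 29.6 and 42.5 CPM. Here E17.5 was lowest, and E15.5 and the transplant were alike. The loop gate had 18.1, 11.1, 15.6 and 36 CPM and the ureteric gate 2.29, 8.02, 8.33 and 31. Endothelium had at most 4.32 CPM.

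The transplant had more Vdr than P0 in 3 gates, by 3.73-fold (95% interval 2.57 to 5.45) in the ureteric gate, 2.41-fold (95% interval 1.31 to 4.92) in the distal gate and 2.31-fold (95% interval 1.78 to 3.05) in the loop gate. In the proximal gate it was 1.44-fold (95% interval 1.25 to 1.65) higher. After thinning, the share of proximal cells with a Vdr UMI was 9.7%, 4.58%, 7.62% and 11.3%. The loop difference was under 2-fold when ratios were centred on the median of all genes, at a log2 ratio of 0.83, and the distal one when cells were weighted equally, at 0.98. Ureteric Vdr was 3.64-fold (95% interval 1.82 to 8.07) higher at P0 than at E15.5, on 48 and 10 UMIs. That direction was lost with gate thresholds doubled (log2 ratio -0.77) and with cells of several gates counted in each (-0.03).

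Cyp27b1, the mitochondrial hydroxylase that makes active vitamin D, was a proximal gene and differed strongly between libraries. The proximal gate had 2, 771, 314 and 50 UMIs from E15.5, E17.5 and P0 to the transplant, or 0.514 (95% interval 0.0623 to 1.86), 119.7 (95% interval 111 to 128), 27.6 (95% interval 24.6 to 30.8) and 3.5 (95% interval 2.6 to 4.62) CPM. No interval overlaps another. A UMI was found in 40% (95% interval 36.1 to 43.9) of the E17.5, 15% (95% interval 12.4 to 17.8) of the P0 and 3.59% (95% interval 2.56 to 4.87) of the transplant proximal cells, and in 20.6%, 5.38% and 0.638% of thinned cells. In endothelium the share was 0.428%, 0.114% and 0%, at median depths of 9511, 8511 and 6802 UMIs, beside 9505, 14589.5 and 11707 in proximal cells. The transplant was 34.2-fold (95% interval 25.7 to 46.4) lower than E17.5 and 7.86-fold (95% interval 5.82 to 10.8) lower than P0. P0 over E15.5 was 53.6-fold (95% interval 14.7 to 444), from 2 UMIs at E15.5. Distal and Tmem52b cells had 0 Cyp27b1 UMIs in every library, and the loop and ureteric gates at most 4.

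Cyp27b1 lies at chr10:127048250-127053006 on the plus strand. Its promoter window, chr10:127047996-127048295 (plus strand, RefSeq, GRCm38.p6), is shown because its proximal level differed between all 4 libraries. The capitals mark its single match, AGGTGA read on the other strand.
Cyp27b1: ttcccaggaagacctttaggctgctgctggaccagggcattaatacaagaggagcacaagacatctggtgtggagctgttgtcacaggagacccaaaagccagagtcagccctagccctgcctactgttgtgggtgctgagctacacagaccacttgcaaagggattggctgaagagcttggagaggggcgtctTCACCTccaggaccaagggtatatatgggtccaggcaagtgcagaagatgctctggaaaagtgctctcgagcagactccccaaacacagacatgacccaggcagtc

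Cyp24a1, which inactivates vitamin D and is a classic target of Vdr, was still more strictly proximal. It had 2, 255, 35 and 185 UMIs in the proximal gate, or 0.514 (95% interval 0.0623 to 1.86), 39.6 (95% interval 34.9 to 44.8), 3.07 (95% interval 2.14 to 4.27) and 13 (95% interval 11.2 to 15) CPM, and 1 UMI in the other tubule gates, in the transplant loop. E17.5 was highest here too, but the transplant lay above P0, by 4.22-fold (95% interval 2.93 to 6.24), whereas for Cyp27b1 it lay below. With a mitochondrial limit of 10% the log2 ratio of the transplant to P0 was 1.09, against 2.08. The P0 value rests on few cells: 13 had a UMI and 1 held 42.9% of them. The transplant was 3.05-fold (95% interval 2.52 to 3.71) lower than E17.5, and 52 of its 1087 proximal cells had a UMI. Pfdn4 overlaps exons of Cyp24a1 (chr2:170482708-170497145) on the other strand.

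At E17.5, 56 of 252 proximal cells with Cyp27b1 also had Cyp24a1, 22.2%, against 6.61% of the other proximal cells. At P0 it was 7 of 106 cells, in the transplant 5 of 39 and at E15.5 0 of 2. For Kl, 51.9% of Kl cells had Cyp27b1 at E17.5 against 14.1% of cells without Kl, and 20.8% against 8.21% at P0. Cells with the first gene of each pair were deeper, with median UMIs of 11222 against 8082.5 for Cyp27b1 and 10596.5 against 7319.5 for Kl at E17.5, and the part of depth in these shares was not tested.

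**Figure D4:**
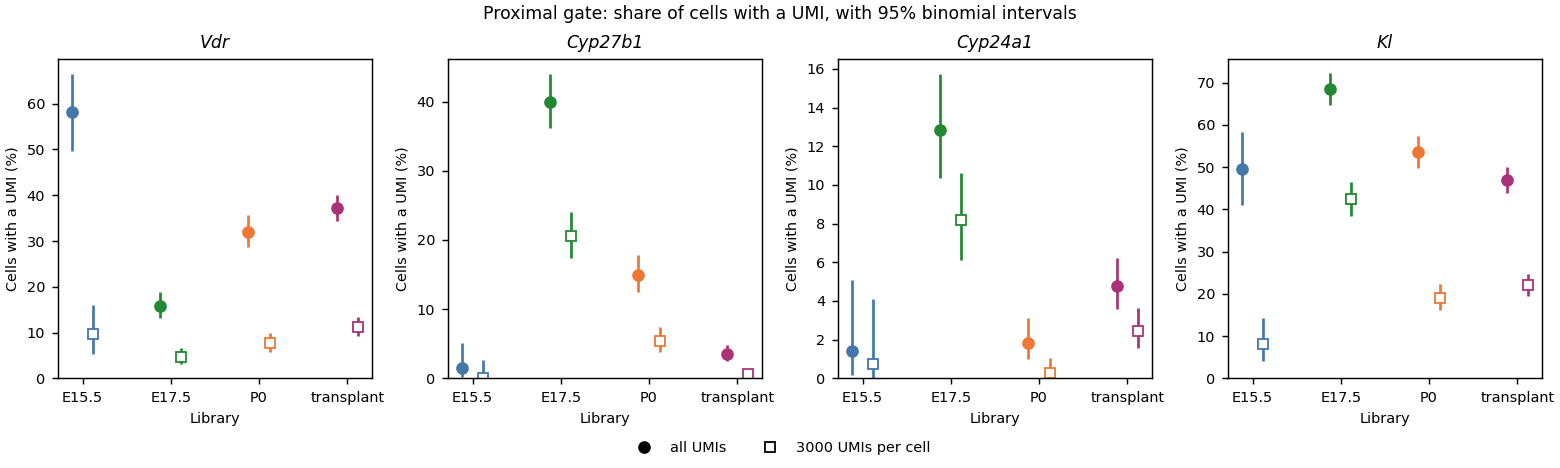
Share of proximal cells with a UMI (percent, with 95% binomial intervals) of Vdr, Cyp27b1, Cyp24a1 and Kl in the 4 libraries, from all UMIs (filled circles) and after thinning each cell to 3000 UMIs (open squares). E17.5 is highest for Cyp27b1, Cyp24a1 and Kl and lowest for Vdr, before and after thinning.

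Kl encodes klotho, the co-receptor of FGF23 and a protein of both proximal and distal tubules. The proximal gate stood highest at E17.5, with 241 (95% interval 229 to 253) CPM, followed by the transplant with 85.1 (95% interval 80.4 to 90.1), P0 with 84.5 (95% interval 79.2 to 90) and E15.5 with 44.5 (95% interval 38.1 to 51.6). From E15.5 to the transplant 8.21%, 42.5%, 19.1% and 22% of thinned proximal cells had a UMI. There the ratio of the transplant to P0 was 1.01-fold (95% interval 0.925 to 1.1), an interval that includes 1, whereas the transplant was 2.83-fold (95% interval 2.63 to 3.06) lower than E17.5. Distal cells had 57.2, 62.4, 179 and 187 CPM, on 8, 11, 28 and 181 UMIs, so that the distal level was above the proximal one at P0 and in the transplant and below it at E17.5. With every cell passing the distal gate counted, E15.5 was highest with 369 CPM, ahead of 183 in the transplant, 133 at P0 and 92.6 at E17.5. This E15.5 value rests on only 11 cells, with 93 Kl UMIs against 8 in the 8 cells of the distal gate alone. In the distal gate the transplant was 2.99-fold (95% interval 1.63 to 6.1) higher than E17.5, the opposite of the proximal gate. Its log2 ratio was under 2-fold in 3 alternatives, at 0.95 with gate thresholds doubled, 0.99 with cells of several gates counted in each and 0.82 with cells weighted equally.

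The ureteric and Tmem52b gates set the transplant apart in Kl. Ureteric Kl was 3.66, 26.5, 6.6 and 79.4 CPM, with a UMI in 5.46% (95% interval 3.66 to 7.79) of cells at P0 and 31.9% (95% interval 25.5 to 38.7) in the transplant, and 2.2% and 18% thinned. Endothelial cells had 0.796% and 1.5%. The transplant was 12-fold (95% interval 8.48 to 17.5) higher than P0 in the ureteric gate and 11.6-fold higher in its Aqp2 cells (95% interval 7.91 to 17.6). In the Tmem52b gate the ratio was 10-fold (95% interval 3.18 to 50.9), from 3 UMIs at P0. Median depth in the ureteric gate was 10179 UMIs at P0 and 10144.5 in the transplant. Median levels of Tmem52b gate genes in ureteric cells were 3.06 and 18.7 per 10000 UMIs, moving with Kl, S100g and Trpv5 of that gate, and their part in these differences was not tested.

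Which gate was highest for each member was read in each library over gates of at least 20 cells and members of at least 20 UMIs. The distal or Tmem52b gate was highest for 1 of 4 members at E15.5 (S100g), where 20.3% of all genes were highest there, 3 of 8 at E17.5 (S100g, Trpv5 and Vdr; 29% of all genes), 7 of 10 at P0 (all but Casr, Cyp27b1 and Cyp24a1; 47.1%) and 5 of 9 in the transplant (S100g, Trpv5, Slc8a1, Vdr and Kl; 37.9%). The distal gate was too small to enter at E15.5 and the Tmem52b gate at E17.5. These shares rest on 4 to 10 members, and nothing is read from them. In the transplant the lead of S100g was 1.06-fold. The lead over the next gate was wide for Pvalb at P0 (29.7-fold, 95% interval 21.7 to 40.6) and for Vdr in the transplant (3.98-fold, 3.33 to 4.74). It was not resolved for Trpv5 and Slc8a1 at P0 or in the transplant, nor for Vdr at P0 or Kl in the transplant, where the interval of the ratio included 1.

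Ratios between libraries were formed for each member in each gate of at least 20 cells in both libraries, with at least 20 UMIs over both. P0 and E15.5, both ICR, gave 20 pairs of member and gate. Of these 10 were at least 2-fold higher at P0 and 1 at least 2-fold lower, where 8.63% and 11.7% of all pairs of gene and gate were. The higher pairs were S100g in 4 gates, Pvalb, Casr and Kl in the loop, Vdr in the ureteric gate, and Cyp27b1 and Cyp24a1 in the proximal gate. Proximal S100g was 74.2 CPM at P0 and 34.7 at E15.5, above the endothelial and stromal levels of these libraries given before. The lower pair was Calb1 in the proximal gate, at 2.19 and 4.89 CPM, beside 3.87 and 6.15 CPM in endothelium. Median log2 ratios of the members were 1.01 in the proximal and 1.66 in the loop gate, beside -0.08 and -0.19 over all genes tested.

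The transplant against P0 gave 26 pairs, 10 higher and 9 lower, against 17.6% and 6.55% of all pairs. Higher were S100g (loop and ureteric, and proximal, where the transplant level is close to background), Vdr (loop, distal, ureteric), Kl (Tmem52b, ureteric), Trpv5 (ureteric) and Cyp24a1 (proximal). Lower were Calb1 in 5 gates, Pvalb in 2, S100g in the distal gate and Cyp27b1 in the proximal gate. Calb1 in proximal (2.19 and 0.771 CPM at P0 and in the transplant) and loop cells (5.47 and 1.35) was near the 3.87 CPM of P0 endothelium and is not read as expression. The transplant against E17.5, both from C57BL/6 lines, shares its transplant library with the comparison just given. It had 22 pairs, 8 higher and 9 lower, against 13.6% and 5.7%. Higher were S100g (proximal, loop, ureteric), Vdr (proximal, loop, ureteric) and Kl (distal, ureteric). Lower were Calb1 in every gate compared, Cyp27b1, Cyp24a1 and Kl (proximal), Trpv5 (distal) and Slc8a1 (ureteric). Some are weak: proximal Calb1 was 0.771 and 3.57 CPM, and 1 cell held 76.9% of loop Calb1 at E17.5. Distal Trpv5 had 14 and 7 UMIs, and the interval of its ratio, 0.137 to 1.06, included 1. Calb1 was lower than E17.5 by 7.26-fold (95% interval 6.47 to 8.18) in the ureteric gate and 10.2-fold (95% interval 6.55 to 16) in the distal gate. Counting every cell that passed the gate gave 13.5-fold and 15.7-fold lower, and weighting cells equally gave a distal log2 ratio of -2.05. Over all genes tested the median log2 ratio was as high as 0.43, in the ureteric gate of the transplant over P0. Centring the ratios on these medians turned the direction of no pair past 2-fold, and took only Vdr in the loop gate of the transplant over P0 under 2-fold; the near-equal proximal Kl went to a log2 ratio of -0.19.

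**Figure D5:**
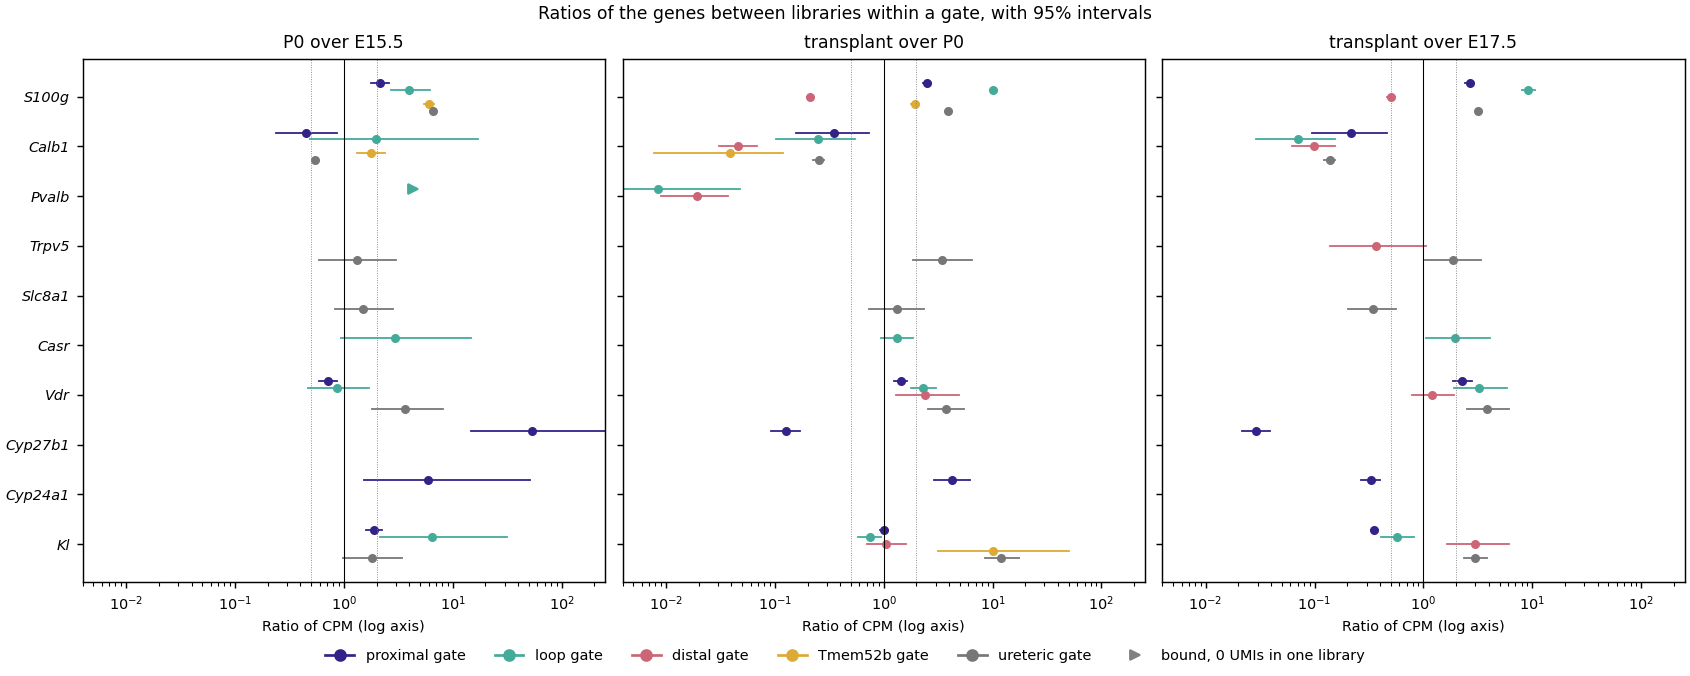
Ratio of CPM (log axis) of each gene in each gate for P0 over E15.5, the transplant over P0 and the transplant over E17.5, with exact 95% intervals, a solid line at 1 and dotted lines at 2-fold; an interval that meets the frame runs past it. Calb1 lies left of 1 in every gate of both transplant panels, in proximal and loop cells at levels near background, and S100g lies left of 1 in the distal gate and right of it in the other gates drawn.

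A list of 63 other genes of calcium, magnesium, phosphate and vitamin D handling was read in the same way. P0 over E15.5 gave 149 pairs, 22 higher and 15 lower, beside 8.63% and 11.7% of all pairs. The transplant gave 48 higher and 13 lower of 179 against P0 (17.6% and 6.55% of all pairs), and 38 and 10 of 158 against E17.5 (13.6% and 5.7%). The groups that follow have few pairs each and are read against these same shares of all pairs. Claudins, which form the pores between cells, were 5 genes of the list, 4 of them with enough UMIs, and had 6 of 10 pairs higher at P0 than at E15.5 and none lower. Local hormones and modulators had 7 of 12 higher, among them Spp1, osteopontin, in the proximal gate (16.4-fold, 95% interval 12.1 to 22.7). The channels had 0 of 12 past 2-fold, and the vitamin D uptake and metabolism group 1 higher and 4 lower of 19.

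Klk1 was among the 2 highest ratios of the list in every gate of both transplant comparisons. This gene, tissue kallikrein, was 226-fold higher than P0 in the Tmem52b gate when 3 UMIs were counted at P0, where none was seen in 20 cells. The exact interval of that ratio begins at 183. In the distal gate Klk1 was 39.7-fold higher than P0 (15.5 to 146). How reads were shared among Klk1 and its close relatives is not given. Slc20a1, a phosphate transporter, was lower in the loop gate, by 6.85-fold against P0 and 3.79-fold against E17.5. Among vitamin D genes, pairs other than the members were mostly within 2-fold: 1 higher and 0 lower of 19 against P0. The sensors and hormone receptors had 8 higher and 0 lower of 22 against P0, where 17.6% and 6.55% of all pairs were.

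The list also shows which gates its genes shared with the members. At P0 the loop gate led for the claudins Cldn16 (156 CPM, from 6.39 in the next gate), Cldn19 and Cldn10, as it did for Casr. The proximal gate led for Slc34a1, the sodium-phosphate cotransporter (916 against 6.73 CPM), and for Amn and Dab2, which serve uptake of filtered proteins such as the vitamin D carrier, as it did for Cyp27b1 and Cyp24a1. The distal gate led for Trpm7 (447 against 114 CPM), a channel for magnesium and calcium, the calcium pump Atp2b4, Cnnm2 and Kcnj10, as for S100g and Pvalb. In the transplant Trpm7, Atp2b4 and Cnnm2 again led in the distal gate.

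For each member the genes with the most similar levels were sought among 13418 genes, by Pearson's r of log2(CPM + 10) over 35 profiles of gate and library of at least 20 cells. The profiles share libraries and depth, and r is a description. S100g was most like Cldn8 (r = 0.924), Tesc and Rhcg. Calb1 was most like Lypd6 (0.882), Gata3 (0.843) and Myo5c. Casr was most like Cldn16 (0.947), Umod, itself a loop gate gene, and Slc4a11. The proximal hydroxylases had Acmsd in common: Cyp27b1 was most like Acmsd (0.964), Serpina6 and Ugt1a2, and Cyp24a1 like Hsd3b3 (0.986), Cyp2e1 and Acmsd (0.957). Kl was most like Pafah2 (0.912), Ush1c and Hadh, and Vdr like Pdhb (0.892), Atp5a1 and Trabd2b. Trpv5 was most like Pgam2 (0.921), Emx1 and Sfxn5, and Pvalb like Kbtbd6 (0.866), Mtus2 and Rab27a, both on few UMIs. Slc8a1 had no close neighbour, with at most 0.681 for Fyttd1, ahead of Ppp1r3c and Thap1.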

How the data were processed

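UMI counts per gene and cell were read from the 10x matrices that the authors deposited for the 4 libraries, in which the total was 92387054, 42430540, 99068204 and 57855356 UMIs at E15.5, E17.5, P0 and in the transplant. Cell Ranger 3.1.0 and GRCm38 are named in the submitters' processing notes, while the counts of E15.5 and P0 carry version 3.0.2 per the file headers and the other libraries 3.1.0. Strand settings are not given in the sources used here.

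Kept cells had 500 genes or more and no more than 20% mitochondrial UMIs, and Scrublet (scanpy 1.11.5) removed 102, 167, 524 and 350 likely doublets, at an expected 0.8% per 1000 cells. This left 3463, 4396, 7568 and 6268 cells, of which 3329, 4024, 6903 and 4546 had the 3000 UMIs needed for thinning. A cell passed a gate on UMIs of its genes per 10000 (at least 20 proximal, 3 distal and Tmem52b, 5 loop and ureteric) with minimum UMIs and genes. UMIs were summed per gate and library. Intervals of 95% are exact Poisson for levels, Clopper-Pearson for shares and exact conditional binomial for ratios (scipy 1.17.1). The ratio intervals were run on simulated Poisson counts, the model that they assume. That run holds no uneven spread of UMIs over cells, so it cannot show how the intervals do on such counts. A count of 0 was set to a floor of 3 UMIs per library where a ratio or a limit was given.

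No difference was tested, since each group is 1 library. The members, the gates, the list of 63 genes and the comparisons were chosen with earlier results of these data known. Beside the members, genes named are those of the list with the 2 highest or 2 lowest ratios in a gate (at least 50 UMIs), or leading 1 gate by 2-fold at P0 or in the transplant, and the 3 most similar genes of each member with at least 100 UMIs. Gene positions are from GENCODE M21, and promoter windows from RefSeq. Alternatives changed the filters, doublet removal, depth, gate thresholds, cells of several gates, cell weights, scaling, the minimum of UMIs and the genes of the Tmem52b gate.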

Additional observations from a re-analysis of the deposited data

Results flagged for a closer look

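The ratio of the transplant to P0 pointed in opposite directions between gates for S100g. It was 2.5 in the proximal gate, where the transplant level is close to background, 10.2 in the loop gate and 3.87 in the ureteric gate, but 0.21 in the distal gate. Kl did so in the transplant over E17.5, with 2.99 in the distal gate, 3.0 in the ureteric gate and 0.353 in the proximal gate. The ureteric log2 ratio of Kl was 0.91 with gate thresholds doubled, under 2-fold. With 1 library per group these differences between gates were not tested.

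The P0 matrix counts a reporter transcript, tdTomato, that no comparison used. It had 7221 UMIs in 3080 P0 cells and 0 in the other libraries, although the P0 label gives the genotype as wild type.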

How the results depend on the processing

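Of 46 member ratios past 2-fold with UMIs in both libraries, those still measurable kept their direction under every alternative run, except ureteric Vdr at P0 over E15.5: its log2 ratio was -0.77 with gate thresholds doubled and -0.0343 with cells of several gates counted in each. Fewest stayed past 2-fold with thresholds doubled, 28 of 35, and with cells weighted equally, 39 of 46.

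Sizes of the transplant over P0 that moved by over 1.5 times included the following log2 ratios. In thinned cells S100g was 2.55 in the loop (from 3.35) and 1.24 in the ureteric gate (from 1.95), and ureteric Vdr and Kl were 1.29 and 2.95 (from 1.90 and 3.59). With cells of several gates counted in each, ureteric Calb1 was -2.79 (from -1.98), ureteric Trpv5 2.82 (from 1.79) and distal Pvalb -6.29 (from -5.68).

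Counts of pairs past 2-fold moved by over 1.5 times as follows. At P0 over E15.5 the higher pairs, 10, were 6 with a mitochondrial limit of 10%, 5 with at least 1000 genes per cell, 4 in thinned cells, 2 with thresholds doubled and 18 with no minimum of UMIs. The lower pairs there, 1, were 0 with no doublet removal, 4 with thresholds doubled or no minimum of UMIs, and 2 with cells weighted equally or with cells of several gates counted in each. For the transplant over P0 the higher pairs, 10, were 6 in thinned cells and 20 with no minimum, and the lower pairs, 9, were 5 at a limit of 10% and 4 in thinned cells or with thresholds doubled. For the transplant over E17.5 the higher pairs, 8, were 16 with no minimum. The tighter filters and thinning also leave fewer pairs to test (6 against 20 at P0 over E15.5 when thinned).

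Members highest in the distal or Tmem52b gate at E15.5, 1 as reported, were 2 with thresholds halved or with cells of several gates given to the highest score, 0 with the Tmem52b gate built from S100g or with such cells counted in each, and 4 with gates of at least 5 cells. At E17.5 they were 5 with thresholds doubled, and in the transplant 3 when thinned, with the S100g-built gate, or without the cell with the most UMIs. Counting such cells in each gate, leaving out the top cell and gates of 5 cells were chosen after seeing the data, and the cause was not tested for any of these.

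No paired analysis was possible because each group is 1 library, and leaving out a replicate has no meaning here. Distal cells numbered 8 to 117 per library, and Trpv5, Slc8a1, Casr and Pvalb had few UMIs.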
